A study of Mus musculus with 8 samples.

Results

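The cells described here are polarized mouse CD4 T cells that carried transcripts of Il22 without those of Il17a or Il17f, set against cells that carried Il17a or Il17f without Il22. They were selected on 3 genes in the deposited counts of unique molecular identifiers (UMIs), which mark single captured mRNA molecules. Among cells with at least 1500 UMIs, an Il22-only cell had at least 1 Il22 UMI and 0 UMIs of Il17a and Il17f, and an Il17-only cell had at least 1 UMI of Il17a or Il17f and 0 of Il22. Of 104660 cells in the series, 93066 reached 1500 UMIs. The rule found 1115 Il22-only and 3831 Il17-only cells, 4946 in all. A further 499 cells carried both kinds of cytokine transcript and 87621 carried neither.

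All cells were CD4 T cells from the spleens of female mice aged 10 weeks, cultured under polarizing cytokines and harvested at day 3. Mice either carried the knockout of Gpr65, an acid-sensing G protein-coupled receptor (KO), or were wild type (WT). Th17 cultures received IL-1b at 20 ng/ml, IL-6 at 25 ng/ml and IL-23 at 20 ng/ml. In Th22 cultures the IL-6 dose was 40 ng/ml, IL-1b and IL-23 were dosed as in Th17 cultures, and FICZ, which activates the aryl hydrocarbon receptor, was added at 400 nM. The 4 groups were KO Th17, KO Th22, WT Th17 and WT Th22, with 2 droplet libraries (10x Genomics 3' chemistry) each. Nothing in the labels ties a library to an animal or culture of its own. The p-values rest on how far these libraries vary, for genes mostly as pooled over all tested genes, and part of that variation may be technical.

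IL-22 is a cytokine that T cells and innate lymphoid cells send to epithelial cells, where its receptor signals mainly through STAT3. IL-17A and IL-17F are related cytokines encoded side by side in the genome, and they act on epithelial, stromal and myeloid cells to draw in neutrophils. Helper T cells can make both kinds together. The nuclear receptor RORα (Rora) helps to drive the Il17 genes, and the aryl hydrocarbon receptor (Ahr) favours Il22.

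Il22-only cells were the rarer kind in 7 of the 8 libraries, and the balance differed widely between libraries. They made up 0.705% and 1.01% of the cells in the KO Th17 libraries, 1.38% and 2.04% in KO Th22, 0.435% and 0.505% in WT Th17, and 1.62% and 1.56% in WT Th22. The Il17-only shares were 1.76% and 3.20% in KO Th17, 1.59% and 1.98% in KO Th22, 8.52% and 7.72% in WT Th17, and 4.78% and 4.74% in WT Th22. For every Il17-only cell there were between 0.0511 Il22-only cells (WT Th17 replicate 1) and 1.03 (KO Th22 replicate 2). These shares depend on the rule and on the sequencing depth, among other things, and are a description only. When every cell was thinned to 1500 UMIs before the rule was applied, the Il22-only shares ran from 0.280% to 1.22% and the Il17-only shares from 0.751% to 5.62%. Per Il17-only cell there were then between 0.05 Il22-only cells (WT Th17 replicate 1) and 1.17 (KO Th22 replicate 2). At that depth KO Th22 replicate 1 had 1.14, so Il22-only cells were the commoner kind in both KO Th22 libraries.

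**Figure D1:**
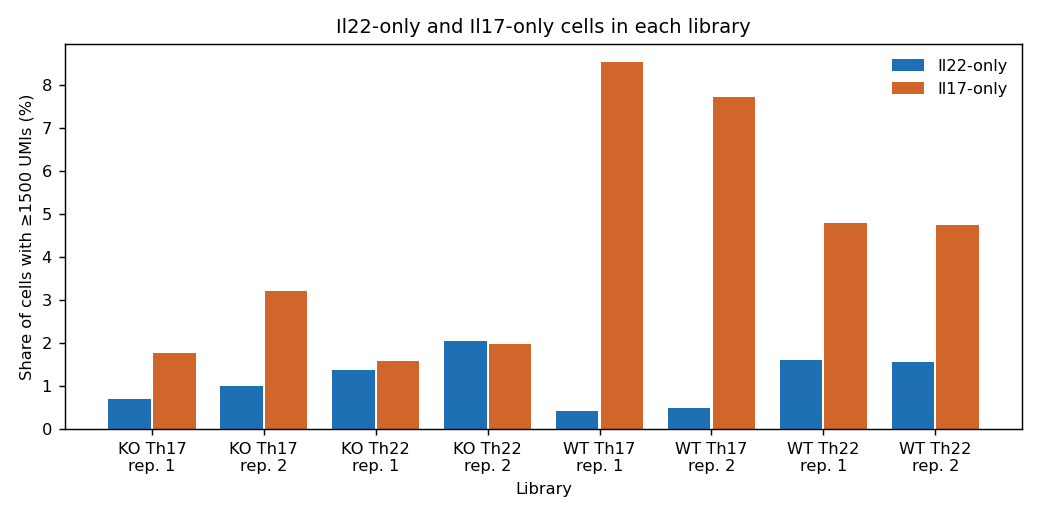
Share of cells with at least 1500 UMIs (y axis, percent) that were Il22-only (blue, left bar) or Il17-only (orange, right bar) in each of the 8 libraries (x axis). The Il17-only share was highest in WT Th17 replicate 1, at 8.52%, and the Il22-only share in KO Th22 replicate 2, at 2.04%.

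Most members rested on few cytokine molecules. Of the Il22-only cells 53.4% had 1 Il22 UMI and 33.3% had at least 3, up to 55 in a single cell. Of the Il17-only cells 55.4% had 1 UMI of Il17a and Il17f together and 29.5% had at least 3, up to 74. Il17f without Il17a defined 66.9% of the Il17-only cells, Il17a without Il17f 17.9%, and both genes 15.1%. The 2 kinds of transcript were associated within libraries, with an odds ratio of carrying both between 7.64 and 18.2, a description that shares the depth of each cell. Of all cells with an Il22 UMI, 16.9% to 51.0% also carried an Il17 UMI. A count of 0 in a cell does not show that the gene is silent there, so both kinds may hold cells that express the other cytokine. No cell type in these cultures is known to lack the cytokines; the deposited cluster with the lowest Il22-only share, cluster 3, had 0.356%, with an Il17-only share of 1.89%. Just below the UMI threshold, 13 Il22-only and 29 Il17-only cells were found among 2427 cells with 1400 to 1499 UMIs, and just above it 8 and 27 among 2587 cells with 1500 to 1599 UMIs.

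Depth differed between the kinds of cell. The median was 4912 UMIs in Il22-only cells and 4199 in Il17-only cells, against 3111 in cells with neither. The summed libraries held 204611 to 1659683 UMIs on the Il22-only side and 771225 to 4053838 on the Il17-only side, 5742766 and 17497168 in all, so UMI totals of single genes are not comparable between the sides as they stand. The smallest of these sums came from the 45 Il22-only cells of WT Th17 replicate 1, where the sparser genes reported here rest on very few UMIs. Of the member cells, 4 shared their cell barcode with a member of another library.

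Both kinds of cell carried T cell transcripts at far higher levels than the markers of other lineages. The summed level of Cd3e, Cd3d, Cd3g, Trac and Cd4 was 1505 to 2535 counts per 1e+06 UMIs (CPM) in Il22-only cells and 1807 to 2785 CPM in Il17-only cells, beside 1807 to 2833 CPM in cells with neither. The summed level of 4 gamma-delta T cell receptor genes was 0 to 24.6 CPM in Il22-only and 2.02 to 23.3 CPM in Il17-only cells, and that of Cd8a and Cd8b1 was 0 to 20.4 and 7.40 to 13.5 CPM. The 5 B cell markers summed to 19.3 to 39.8 and 22.3 to 41.5 CPM, mainly from Ighm, which averaged 29.7 and 29.4 CPM. Of 5 natural killer and innate lymphoid markers 4 were in the matrix. They gave 5 UMIs in all Il22-only and 42 in all Il17-only cells, with Klrb1c, Tyrobp and Fcer1g at 0 in the Il22-only cells. Of 5 myeloid markers 3 were in the matrix, and they gave 2 and 7 UMIs, with Csf1r and Cd14 at 0 in the Il22-only cells. Cd68, on a wider myeloid list, averaged 29.2 and 28.9 CPM, beside 24.6 CPM in cells with neither. Gpr65 had 1 or 2 UMIs per KO library in Il22-only cells and 1 to 5 in Il17-only cells, against 22 to 84 and 275 to 509 in the WT libraries, so all 8 libraries matched their genotype label. Of the authors' 12 clusters, cluster 2 held 42.5% of the Il22-only and 58.0% of the Il17-only cells, 87.2% of the cells with both and 7.29% of those with neither. Over single libraries cluster 2 held 37.3% to 51.1% of the Il22-only and 49.1% to 63.2% of the Il17-only cells, and cluster 1 held 17.5% to 29.6% and 10.9% to 18.3%. Cluster 0 held 0% to 19.4% and 8.11% to 23.0%, ranges that overlap widely, and cluster 4 held 2.04% to 13.3% and 1.47% to 2.42%. The labels do not say how the clusters were made, and the cytokine genes may have shaped them.

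Gene expression was then compared between the kinds of cell within each library, without the 3 genes that define them. Il22-only cells had higher transcripts of lymphotoxin alpha and of a group of amino acid synthesis and stress response genes. They had lower transcripts of Rora, of Ifitm2 and of several T cell receptor components. Lower as well were both inhibitory receptors (Ctla4 and Lag3) and co-stimulatory ones (Cd28, Tnfrsf4 and Tnfrsf9). UMIs were summed per library and kind, and edgeR's quasi-likelihood test was run on the 16 sums with library as a block. Of 6259 genes tested, 226 passed at an adjusted p of 0.05, or 3.61%. They comprised 129 higher in Il22-only cells (2.06%) and 97 lower (1.55%). Of the 226, 122 had the same direction in all 8 libraries, and 13 differed by more than 1 on the log2 scale. The median log2 fold change over all tested genes was 0.0057.

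**Figure D2:**
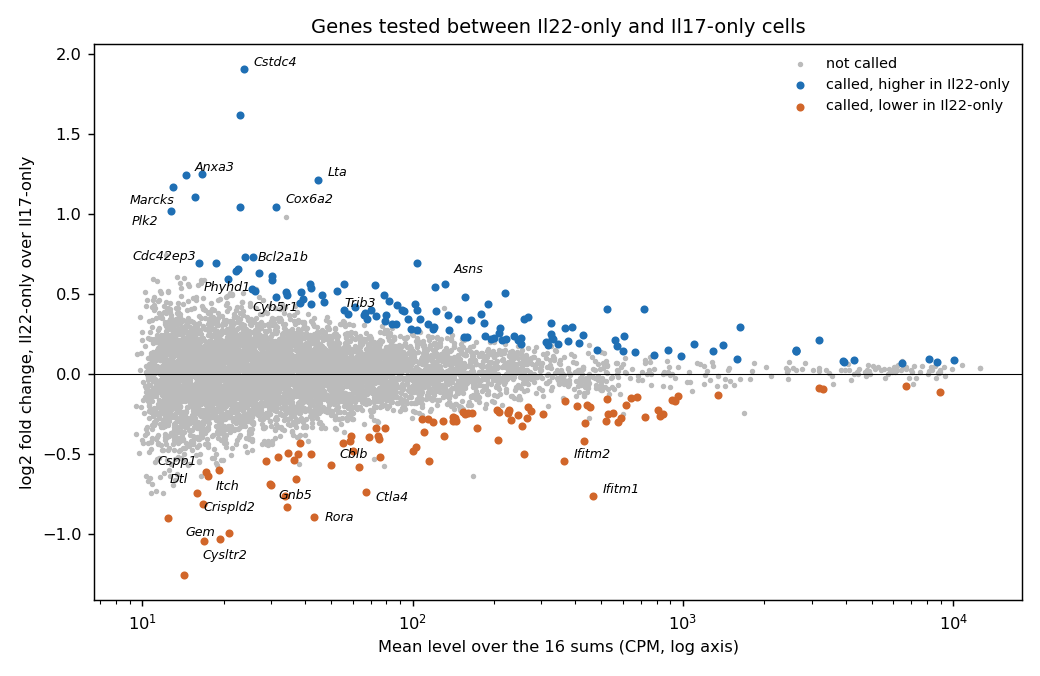
Log2 fold change of Il22-only over Il17-only cells (y axis) against the mean level over the 16 sums in CPM (x axis, log scale) for 6259 genes. Blue points are the 129 genes called higher in Il22-only cells, orange points the 97 called lower and grey points those not called, and names mark the 12 largest rises and 12 largest falls that had the same direction in 8 of 8 libraries and a mean of at least 10 CPM.

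Among cytokines, the clearest difference was in Lta, which encodes lymphotoxin alpha, a secreted member of the tumour necrosis factor family that helps to organize lymphoid tissue. Lta (ENSMUSG00000024402, chromosome 17, 35203165 to 35205351, minus strand, mm10) had 26.5 to 144 CPM in Il22-only cells with a median of 60.5, and 16.1 to 51.0 CPM in Il17-only cells with a median of 22.3. The ranges overlapped between libraries, while within each library the Il22-only cells were higher. The log2 fold change was 1.21 ± 0.13 (SE, edgeR adjusted p = 2.2e-11), higher in 8 of 8 libraries. Lta UMIs were present in 17.1% of Il22-only and 8.95% of Il17-only cells, and the largest contribution of a single cell was 3.51% of the Il22-only UMIs. Its neighbours in the same gene cluster did not pass: Tnf had 0.15 ± 0.20 (adjusted p = 0.79) and Ltb, the partner chain of lymphotoxin alpha on the cell surface, had 0.02 ± 0.06 (adjusted p = 0.92). The mean was 63.0 ± 38.1 CPM in Il22-only and 26.7 ± 13.2 CPM in Il17-only cells, beside 28.8 ± 16.2 CPM in cells with neither cytokine (SD, n = 8 each).

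Il24, a cytokine of the IL-10 family as Il22 is, was also higher in Il22-only cells. It had 15.6 to 370 CPM there and 12.9 to 163 CPM in Il17-only cells, and its log2 fold change was 0.69 ± 0.16 (edgeR adjusted p = 0.022, higher in 7 of 8 libraries). Both kinds of cell were above the 12.7 ± 11.2 CPM of cells with neither, and the mean was highest, 197 ± 165 CPM, in cells with both (SD, n = 8 each). The Il24 call was lost without KO Th17 replicate 1, KO Th22 replicate 1 or KO Th22 replicate 2 (edgeR adjusted p = 0.070, 0.064 and 0.074), and its log2 fold change was 0.09 when Il17a defined the Il17-only cells. Of the 29 cytokines and chemokines listed, 9 passed the filter on low counts and 2 were called, both higher, against 2.06% of all genes. Tgfb1, Il21, Tnfsf8, Ccl4 and Ccl5 were tested and did not pass. Csf2, Ifng, Il2, Il10 and Il1rn were too sparse to pass the filter. Without it, Il1rn, the antagonist of the IL-1 receptor, had 10.8 ± 9.23 CPM in Il22-only and 7.06 ± 6.18 CPM in Il17-only cells (log2 fold change 0.69 ± 0.30, edgeR adjusted p = 0.42), and none of the other 4 passed.

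The list of ATF4 target genes moved in one direction. ATF4 is a transcription factor that is translated when amino acids run short or proteins misfold, and it switches on enzymes that make asparagine, serine, glycine and cysteine, amino acid transporters and stress regulators. Of 20 listed genes 16 were tested, and 12 of them were called higher in Il22-only cells and 0 lower, against 2.06% of all genes called higher. All 16 had a positive sign, with a median log2 fold change of 0.38, against 0.0057 over all genes tested. The list was chosen with results of the same libraries known, in which its genes were higher in KO than in WT, so its direction is not independent of them.

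The asparagine synthetase Asns (ENSMUSG00000029752, chromosome 6, 7675169 to 7693254, minus strand) had 117 to 188 CPM in Il22-only cells with a median of 168, and 81.1 to 140 CPM in Il17-only cells with a median of 110. The 4 KO libraries and WT Th17 replicate 1 had the highest Il22-only values, and the 2 WT Th22 libraries had the lowest on both sides. The log2 fold change was 0.57 ± 0.07 (SE, edgeR adjusted p = 1.1e-08, higher in 8 of 8 libraries). Asns was called in all 29 alternative analyses, with fold changes from 0.42 to 0.70.

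Other enzymes rose as well. Phgdh, the first enzyme of serine synthesis, averaged 304 ± 77.0 CPM in Il22-only and 231 ± 36.0 CPM in Il17-only cells (SD, n = 8 each). Its log2 fold change was 0.36 (edgeR adjusted p = 2.9e-06), with the same direction in all libraries. Psat1, the next step of that pathway, had 0.35 (adjusted p = 0.0094), and Shmt2 and Mthfd2, which carry serine carbon into mitochondrial folate, had 0.46 and 0.26. Cth, which makes cysteine from cystathionine, was at 31.0 ± 13.1 CPM in Il22-only and 15.2 ± 8.55 CPM in Il17-only cells, with a log2 fold change of 1.05 ± 0.18 (edgeR adjusted p = 2.3e-05, higher in 7 of 8 libraries). The amino acid transporter subunit Slc3a2 had 0.29 (adjusted p = 0.00064), while its partner Slc7a5 had 0.12 ± 0.16 and did not pass.

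Regulators of the response showed the same direction. Nupr1, a small chromatin protein induced by stress, averaged 144 ± 65.9 CPM in Il22-only and 98.8 ± 56.5 CPM in Il17-only cells, with a log2 fold change of 0.54 ± 0.09 (edgeR adjusted p = 2.6e-06, higher in 7 of 8 libraries). Trib3, a pseudokinase, averaged 61.7 ± 16.8 CPM and 43.4 ± 13.0 CPM, a log2 fold change of 0.52 ± 0.11 (adjusted p = 0.0013). The Trib3 call was lost without KO Th22 replicate 2 (0.38, edgeR adjusted p = 0.10). Sesn2, which restrains mTORC1, rose by 0.66 on the log2 scale, and the transcription factors Cebpb and Ddit3 by 0.40 and 0.34. Atf4 itself, Atf3 and Psph had 0.16, 0.53 and 0.23 and did not pass (adjusted p = 0.078, 0.067 and 0.086). In Ddit3, both kinds were below cells with neither: 182 CPM in Il22-only and 146 CPM in Il17-only cells, against 252 CPM. For Asns the Il22-only mean was 157 CPM and the Il17-only mean 107 CPM, beside 110 CPM in cells with neither.

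The ATF4 list was examined where depth, cluster and group were held apart, each time beside the share of all tested genes called higher in that setting. With each member cell thinned to 1500 UMIs, 12 of the list's genes could be tested, all 12 had a positive sign and 5 were called higher (all genes 1.39%). In cells with 1500 to 4000 UMIs 11 could be tested, all 11 were positive and 2 were called (all genes 0.363%). Within cluster 2 all 15 tested were positive with 10 called (all genes 1.66%), and outside cluster 2 the counts were 14 positive of 15 with 5 called (all genes 1.17%). In KO libraries 17 of 17 were positive with 8 called (all genes 2.02%), and in WT libraries 17 of 18 with 3 called (all genes 0.174%). In Th22 libraries 16 of 16 were positive with 7 called (all genes 0.797%), and in Th17 libraries 15 of 16 with 5 called (all genes 0.818%). When Il17a was required on the Il17-only side, 16 of 16 were positive and 2 were called (all genes 0.366%).

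The promoters of 3 called list members are shown because the called genes moved together and because a composite element bound by ATF4 and C/EBP factors is known from several of them. The core letters TGATGNAA were searched on both strands of the 300 bases from 250 before to 50 after each RefSeq transcript start (GRCm38.p6). They occur in 3.97% of all 32841 such windows and in 2.11% of the 6406 windows of tested genes. Counted by gene, 130 of 5048 tested genes held it (2.58%). Of the 12 called list genes 11 had a window and 3 held the core, and over the whole list it was found in 7 of 17 genes. The list genes with the core that are not shown were Atf3, tested and not called, and Chac1, Slc7a11 and Vldlr, below the filter on low counts. The core was therefore not particular to the called members. Capitals mark it in each sequence, given 5′ to 3′ on the strand of the gene.
Asns, chr6:7693160-7693459, minus strand: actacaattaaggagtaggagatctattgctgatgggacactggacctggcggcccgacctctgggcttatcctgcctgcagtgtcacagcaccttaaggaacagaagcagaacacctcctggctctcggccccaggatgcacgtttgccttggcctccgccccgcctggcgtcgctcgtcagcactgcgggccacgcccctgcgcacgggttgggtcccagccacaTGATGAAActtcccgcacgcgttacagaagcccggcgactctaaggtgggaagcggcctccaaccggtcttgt
Trib3, chr2:152344011-152344310, minus strand: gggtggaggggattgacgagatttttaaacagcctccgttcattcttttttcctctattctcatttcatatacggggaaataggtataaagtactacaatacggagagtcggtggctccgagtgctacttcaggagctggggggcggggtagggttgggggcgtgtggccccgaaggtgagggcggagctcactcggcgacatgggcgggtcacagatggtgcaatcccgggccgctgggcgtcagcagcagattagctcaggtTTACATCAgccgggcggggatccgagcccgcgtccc
Nupr1, chr7:126625421-126625720, minus strand: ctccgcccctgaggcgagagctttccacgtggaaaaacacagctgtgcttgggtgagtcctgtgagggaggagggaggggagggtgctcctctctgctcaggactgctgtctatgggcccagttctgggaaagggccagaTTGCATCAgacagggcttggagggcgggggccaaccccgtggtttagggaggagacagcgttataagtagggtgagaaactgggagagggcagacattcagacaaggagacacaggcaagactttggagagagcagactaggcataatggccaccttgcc
In Asns the match reads along the gene and its first base lies 23 bases before the start. In Trib3 it lies on the opposite strand, from base 15 after the start, and in Nupr1 on the opposite strand from 110 bases before it. Among all called genes with a window, 7 of 99 higher and 1 of 69 lower ones held the core. A match is a description of letters and not a shown binding site.

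The Th17 core list, other than the cytokines themselves, held 2 genes that were lower in Il22-only cells. Of 18 listed genes 11 were tested, 0 were called higher and 2 lower, against 1.55% of all genes called lower, and the median log2 fold change was -0.20. Rora (ENSMUSG00000032238, chromosome 9, 68653786 to 69388246, plus strand) had 22.9 to 40.6 CPM in Il22-only cells with a median of 29.0, and 48.4 to 64.2 CPM in Il17-only cells with a median of 55.5. The ranges did not overlap. The log2 fold change was -0.89 ± 0.13 (SE, edgeR adjusted p = 2.7e-07), lower in 8 of 8 libraries. Il22-only cells were near the level of cells with neither, 25.7 ± 3.55 CPM, and Il17-only cells averaged 55.3 ± 4.71 CPM (SD, n = 8 each). The Rora call was lost among cells with 1500 to 4000 UMIs (-0.70), outside cluster 2 (-0.64) and in the Th17 libraries taken alone (-0.68).

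Hif1a, a transcription factor of low oxygen that also promotes Th17 differentiation, was at 462 ± 103 CPM in Il22-only and 574 ± 110 CPM in Il17-only cells, a log2 fold change of -0.29 ± 0.04 (edgeR adjusted p = 1.3e-06). It was lower in 8 of 8 libraries and was called in all 29 alternative analyses. Batf, Irf4, Stat3 and Maf, transcription factors that act early in Th17 cells, had -0.09, -0.20, -0.11 and 0.14 and did not pass. Below the filter, the IL-23 receptor gene Il23r had 2.86 ± 2.12 CPM in Il22-only and 5.45 ± 2.29 CPM in Il17-only cells (-0.79 ± 0.40, edgeR adjusted p = 0.60 without the filter). Ccr6, a chemokine receptor of Th17 cells, had 0.742 ± 1.46 and 3.51 ± 2.40 CPM (-1.68 ± 0.63, adjusted p = 0.24), and Il1r1 had 2.69 ± 2.03 and 3.50 ± 1.98 CPM (-0.62 ± 0.50, adjusted p = 0.87).

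**Figure D3:**
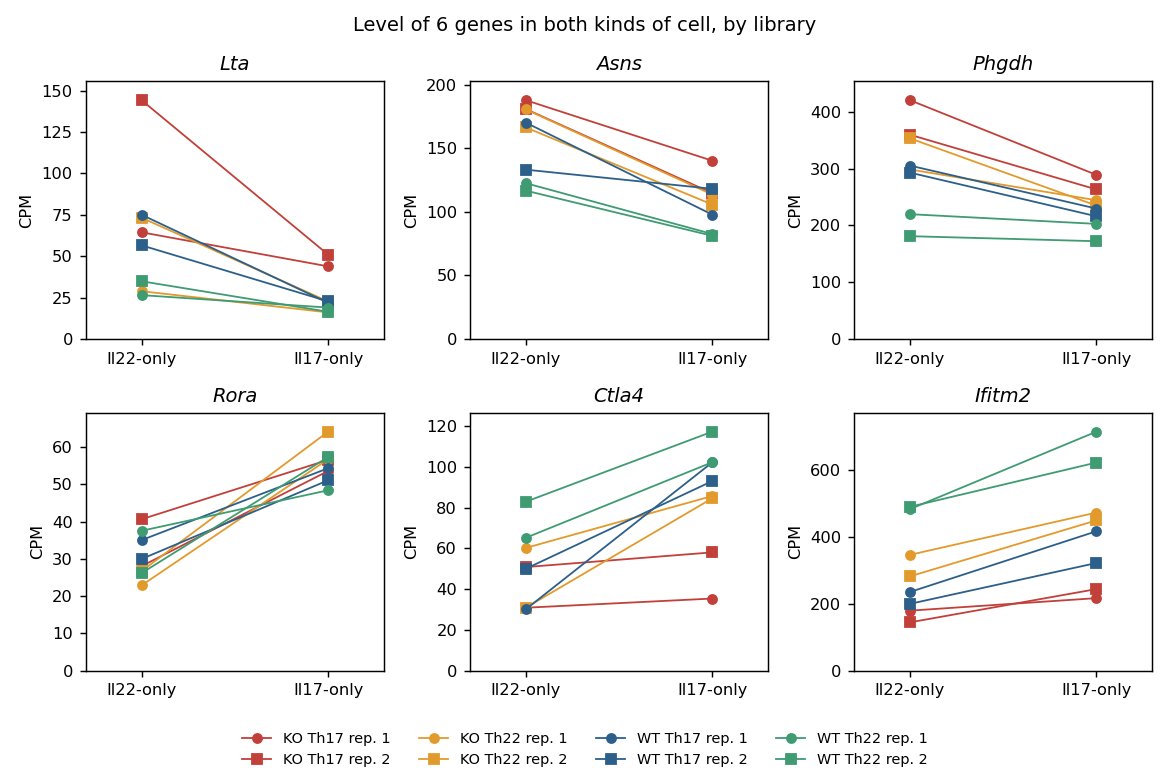
Level in CPM (y axis, from 0) of 6 genes in the Il22-only and Il17-only cells of each library, joined by a line per library, with color for the group and circle or square for replicate 1 or 2. In all 8 libraries the Il22-only value is the higher one for Lta, Asns and Phgdh and the lower one for Rora, Ctla4 and Ifitm2, and the 2 sides do not overlap for Rora.

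Genes of the aryl hydrocarbon receptor pathway gave no call. Of 10 listed genes 3 passed the filter: Tiparp (-0.12 ± 0.13), a target that feeds back on the receptor, Asb2 (-0.07 ± 0.11) and the receptor's partner Arnt (-0.19 ± 0.20), with adjusted p of 0.73, 0.85 and 0.72. Without the filter, Ahr had 8.72 ± 8.86 CPM in Il22-only and 10.3 ± 5.19 CPM in Il17-only cells (-0.26 ± 0.26, edgeR adjusted p = 0.91), and its classical target Cyp1a1 had 6.39 ± 8.51 and 8.30 ± 10.2 CPM (-0.41 ± 0.27, adjusted p = 0.83).

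Several receptors that tune T cell activation were lower in Il22-only cells. Of 17 co-stimulatory and inhibitory receptors 12 were tested, 6 were called lower and 0 higher, against 1.55% of all genes called lower, and 11 of 12 had a negative sign (median -0.27). Ctla4, which takes B7 ligands away from Cd28, had 30.0 to 82.9 CPM in Il22-only cells with a median of 50.4, and 35.3 to 117 CPM in Il17-only cells with a median of 89.4. The log2 fold change was -0.73 ± 0.11 (edgeR adjusted p = 4.8e-07), lower in 8 of 8 libraries. The KO Th17 libraries showed the smallest differences. The inhibitory receptor Lag3 averaged 52.9 ± 13.3 CPM and 73.3 ± 14.4 CPM (-0.58 ± 0.11, edgeR adjusted p = 0.00011, lower in 7 of 8 libraries). Cd28 had -0.32 and Tnfrsf4 (OX40), at 652 ± 111 and 795 ± 119 CPM, had -0.27 (adjusted p = 3.3e-07, lower in 8 of 8 libraries). Tnfrsf9 (4-1BB) and Cd200 were called with -0.30 and -0.17. Over 29 alternative analyses, Lag3 and Cd28 each missed the threshold in 6, Ctla4 in 3 and Tnfrsf4 in 2. At its weakest the log2 fold change of Lag3 was -0.30. Icos had the 1 positive sign, 0.31 ± 0.11, and did not pass (adjusted p = 0.11).

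The T cell receptor complex was slightly lower in Il22-only cells. All 15 listed T cell identity genes were tested, 6 were called lower and 1 higher, against 1.55% and 2.06% of all genes, and the median was -0.15. The CD3 chains Cd3g, Cd3e and Cd3d had -0.25, -0.23 and -0.16, the receptor chains Trac and Trbc2 had -0.27 and -0.17, and Cd28, which is on both lists, was the sixth. Lat, an adaptor that the receptor's kinases phosphorylate, was called higher with 0.21 and had the same direction in 8 of 8 libraries. Cd4 averaged 103 ± 18.6 CPM and 114 ± 23.4 CPM and did not pass (-0.15 ± 0.08, adjusted p = 0.37). On cells thinned to 1500 UMIs 2 of the 15 genes were called lower (0.964% of all genes), and in the window of 1500 to 4000 UMIs 0 were called by edgeR at an adjusted p of 0.05 (0.524% of all genes lower).

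**Figure D4:**
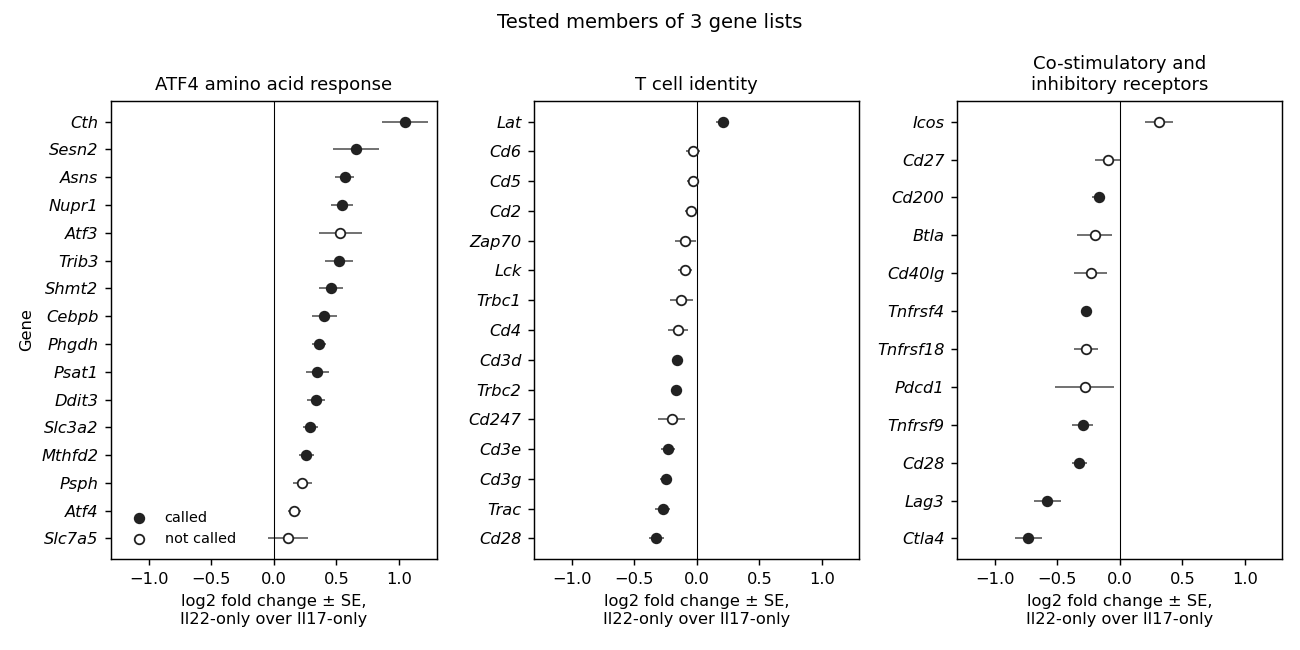
Log2 fold change of Il22-only over Il17-only cells with its SE (x axis) for the tested members (y axis) of the ATF4 amino acid response, T cell identity and co-stimulatory and inhibitory receptor lists. Filled points were called: 12 of 16 ATF4 genes higher, 6 of 15 T cell identity genes lower with Lat higher, and 6 of 12 receptors lower.

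Ifitm genes encode small membrane proteins, induced by interferon, that block virus entry. Ifitm2 (ENSMUSG00000060591, chromosome 7, 140954837 to 140955987, minus strand) had 144 to 491 CPM in Il22-only and 217 to 716 CPM in Il17-only cells. The sides overlapped between libraries, and within each library the Il22-only cells were lower. Its log2 fold change of -0.54 ± 0.05 had the smallest adjusted p of all genes (edgeR, 4.1e-14), and it was called in all 29 alternative analyses. Ifitm1 spanned 8.13 to 1008 CPM in Il22-only and 50.2 to 1538 CPM in Il17-only cells, and was lower in 8 of 8 libraries (-0.76 ± 0.14, adjusted p = 0.030), but this call was lost when any 1 library other than WT Th17 replicate 2 was left out (-0.67 to -0.86, adjusted p up to 0.10). Ifitm3 had -0.63 ± 0.18 and did not pass (adjusted p = 0.14). The Ifitm genes are similar in sequence, so the assignment of reads among them is uncertain.

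Genes outside these lists differed as well. Rises with the same direction in all 8 libraries were found in Anxa3, an annexin that binds phospholipids (19.8 ± 8.35 and 9.17 ± 4.90 CPM, log2 fold change 1.25 ± 0.22), Marcks, a protein kinase C substrate at the membrane (21.7 ± 6.54 and 9.70 ± 1.65 CPM, 1.11 ± 0.21), Cox6a2, a subunit of cytochrome c oxidase (42.0 ± 31.8 and 20.5 ± 17.7 CPM, 1.04 ± 0.16), and the kinase Plk2 (17.1 ± 6.86 and 8.52 ± 3.33 CPM, 1.02 ± 0.24). Their edgeR adjusted p ran from 9.5e-07 (Cox6a2) to 0.0023 (Plk2). Smaller rises were found in Cdc42ep3 (0.69), Bcl2a1b, a survival gene of the BCL2 family with close paralogs that make its reads uncertain (0.62), Phyhd1 (0.59) and Cyb5r1 (0.54). The call for Cdc42ep3 was lost without KO Th22 replicate 1 or KO Th22 replicate 2 (0.63 and 0.62), and that for Phyhd1 without KO Th22 replicate 1 (0.50).

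The largest rise by fold, in the cystatin-family gene Cstdc4, rested on few cells. It had 16.7 to 110 CPM in Il22-only and 4.60 to 12.7 CPM in Il17-only cells, a log2 fold change of 1.90 ± 0.20 (edgeR adjusted p = 1.5e-11), and the ranges did not overlap. Only 65 of 1115 Il22-only cells carried any of its 183 UMIs. A single cell held 26 of 37 UMIs in KO Th22 replicate 1, 15 of 22 in WT Th17 replicate 1 and 6 of 8 in KO Th17 replicate 1. The gene belongs to a family of near-identical copies, so its reads are uncertain as well.

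Falls outside the lists were led by Cysltr2, a receptor for cysteinyl leukotrienes (11.8 ± 3.99 CPM in Il22-only and 27.0 ± 6.85 CPM in Il17-only cells, log2 fold change -1.03 ± 0.18, edgeR adjusted p = 3.1e-05), and by Gem, a small GTPase (13.2 ± 6.31 and 28.6 ± 7.60 CPM, -0.99 ± 0.18, adjusted p = 2.9e-05). Crispld2, a secreted protein, averaged 22.2 ± 11.5 and 46.3 ± 15.4 CPM (-0.83 ± 0.14, adjusted p = 1.2e-05). Cells with both cytokines had 29.1 CPM of Cysltr2 and 59.4 CPM of Crispld2, and cells with neither had 10.4 and 12.1 CPM. All of these were lower in 8 of 8 libraries. Gnb5, a G protein beta subunit, had -0.69. The ubiquitin ligases Cblb and Itch, which restrain T cell activation, had -0.57 and -0.60. The Itch call was lost without KO Th17 replicate 1, KO Th22 replicate 1, KO Th22 replicate 2, WT Th17 replicate 1 or WT Th22 replicate 1, with -0.53 to -0.62. Cspp1, a centrosome protein, had -0.63. Its call was lost without either KO Th17 library, either KO Th22 library or WT Th17 replicate 1, with -0.51 to -0.66.

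**Figure D5:**
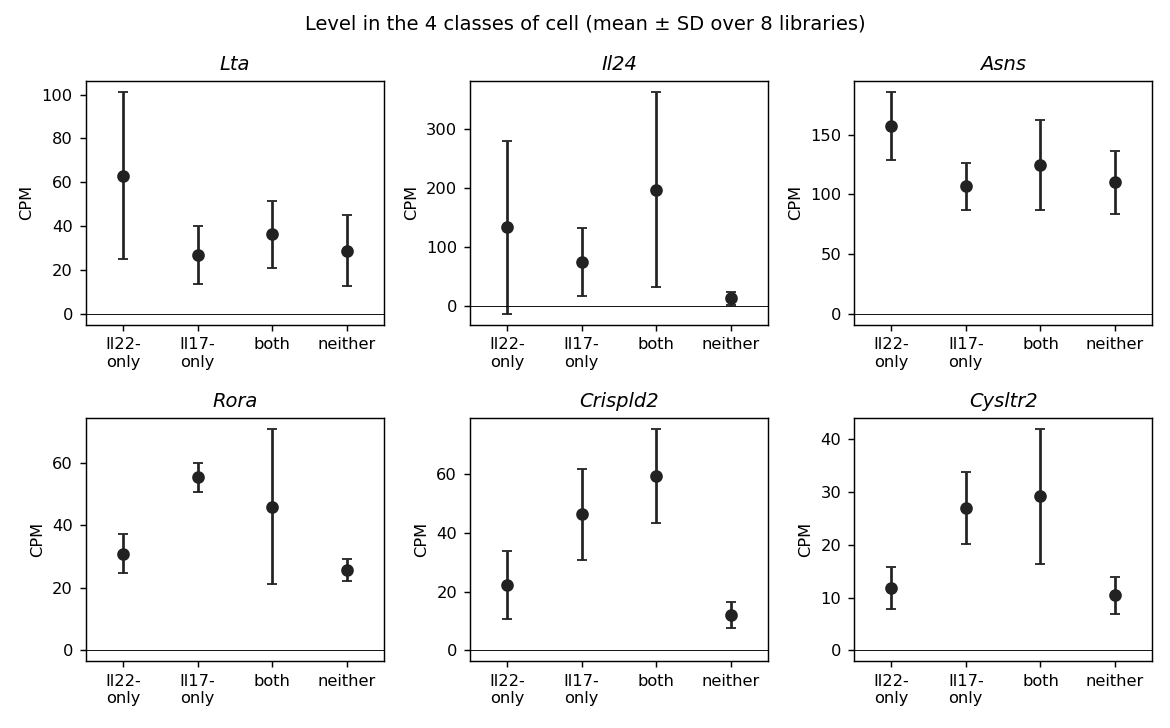
Mean level in CPM with its SD over 8 libraries (y axis) of 6 genes in Il22-only cells, Il17-only cells, cells with both cytokines and cells with neither (x axis). Cells with both and with neither were scaled in a run separate from that of the other classes. Lta and Asns are highest in Il22-only cells, at 63.0 and 157 CPM, Il24 is highest in cells with both, at 197 CPM, and Rora, Crispld2 and Cysltr2 are higher in Il17-only cells and cells with both than in the other classes.

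Most cell cycle genes had a negative sign and few were called. Of 23 tested G2/M genes 3 were called lower and 0 higher, against 1.55% of all genes lower (median -0.21): the mitotic motor Kif11 (-0.74), Nusap1 (-0.39) and Top2a (-0.24). Of 19 tested S phase genes 2 were called lower, against the same 1.55%: Mcm3, part of the replicative helicase (-0.48, adjusted p = 0.0013), and Dtl (-0.61). The Kif11 call was lost without KO Th17 replicate 1, KO Th22 replicate 2 or WT Th22 replicate 2 (-0.62 to -0.72), and the Nusap1 call without KO Th17 replicate 1 or WT Th22 replicate 1 (-0.34 and -0.32). The Top2a call held only without WT Th17 replicate 1 or WT Th17 replicate 2 and was lost without any other library (-0.18 to -0.26), and the Dtl call held only without WT Th17 replicate 1 or WT Th22 replicate 1 and was lost without any other (-0.57 to -0.66). Mcm3 stayed called without any 1 library. It lies near Il17f, a gene of the rule, on the same strand (chromosome 1, minus strand, Mcm3 at 20802968 to 20820312 and Il17f at 20777146 to 20790617). Whether the Mcm3 difference is independent of the rule was not tested. The other tested genes of the helicase, Mcm2, Mcm4, Mcm5, Mcm6 and Mcm7, did not pass. The median deposited G2/M score per library was -0.348 ± 0.0810 in Il22-only and -0.311 ± 0.0720 in Il17-only cells, lower in 8 of 8 libraries (difference -0.0376 ± 0.0194 SD, exact two-sided paired permutation p = 0.0078, the smallest that 8 pairs allow, and 0.023 adjusted over 3 measures). In cells with 1500 to 4000 UMIs that difference was 0.0090 with the opposite sign (exact permutation, adjusted p = 0.586), and depth differs between the sides as given above. The S score differed by -0.0014 (exact permutation p = 0.594). The median percent of mitochondrial UMIs was 2.28 ± 0.184 in Il22-only and 2.45 ± 0.116 in Il17-only cells, lower in 7 of 8 libraries (exact paired permutation p = 0.0156, adjusted 0.023), and the difference in the window was -0.0987 points (exact permutation, adjusted p = 0.469).

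In the lists that follow, the counts stand against 2.06% of all genes called higher and 1.55% lower, and in lists this short 1 or 2 called genes are not read as a result about the list. Among cytokine receptors 1 of 17 tested genes was called, Ifngr1, a chain of the interferon gamma receptor (-0.41 ± 0.11, edgeR adjusted p = 0.016), and its call was lost without KO Th22 replicate 1 (-0.28) or KO Th22 replicate 2 (-0.40). Il6ra, Il1r2 and Il2rg had -0.42, -0.41 and -0.13 and did not pass. Of 15 naive and memory T cell genes 1 was called, the chromatin organizer Satb1 (-0.20, adjusted p = 0.0032), while Bach2 (-0.34), Pik3ip1 (-0.28) and S1pr1 (0.34) did not pass. Of 20 glycolysis and hypoxia genes 2 were called lower, Hif1a and the lactate exporter Slc16a3 (-0.38, adjusted p = 0.023), and 10 of the 20 had a positive sign; the glucose transporter Slc2a1 (0.33) and Egln3 (0.19) did not pass. The Slc16a3 call was lost without any 1 of 4 libraries, KO Th17 replicate 1, KO Th22 replicate 2, WT Th17 replicate 1 and WT Th22 replicate 1 (-0.32 to -0.36). Gzmb, which encodes a cytotoxic granule protease, averaged 146 ± 66.5 CPM and 116 ± 49.5 CPM and did not pass (0.42 ± 0.20, adjusted p = 0.41). Of the remaining lists, STAT3 and SOCS feedback had 0 of 14 tested members called, sterol and fatty acid synthesis 0 of 22, activation and immediate early genes 0 of 12, Th1 genes 0 of 7 and non-pathogenic Th17 genes 0 of 2. Interferon response genes had 1 of 7 lower, cytotoxic granule genes 1 of 5 lower, regulatory T cell genes 1 of 5 lower (Ctla4), and genes linked to pathogenic Th17 cells 1 of 8 higher (Lgals3) and 1 lower (Lag3).

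Whether the difference between the kinds of cell depends on culture or genotype was tested with 2 further terms. For Th22 minus Th17, 0 of 6259 genes passed (0%), with 282 at an unadjusted p under 0.05 and a smallest adjusted p of 0.47. For KO minus WT, 1 gene passed (0.016%), with 404 at an unadjusted p under 0.05. Without any difference, a share of about 0.05 of the 6259 genes would fall under that unadjusted p. With 2 libraries per group these tests leave each gene 5 residual degrees of freedom of its own, beside the variation pooled over genes. A p that misses the threshold does not show that the groups behave alike. The called gene was Dgat1, which encodes an enzyme of triglyceride synthesis. Its Il22-only levels were 22.4 and 28.4 CPM in KO Th17, 50.5 and 27.4 in KO Th22, 80.1 and 103 in WT Th17 and 85.0 and 100.3 in WT Th22. Its Il17-only levels were 75.6 and 57.3 CPM in KO Th17, 99.6 and 74.0 in KO Th22, 116 and 146 in WT Th17 and 86.8 and 104 in WT Th22. The log2 fold change of Il22-only over Il17-only differed by -1.07 ± 0.20 between KO and WT (edgeR adjusted p = 0.0069), and this call was lost without KO Th17 replicate 1, KO Th22 replicate 2, WT Th22 replicate 1 or WT Th22 replicate 2, with -0.88 to -1.05.

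The number of called genes depended on the analysis. With member cells thinned to 1500 UMIs, 46 genes were called higher and 32 lower, and 69 of these 78 were among the 226. Within cells of 1500 to 4000 UMIs the counts were 9 and 13, with 16 of 22 shared, and with Il17a required on the Il17-only side they were 19 and 24. Leaving out KO Th22 replicate 2, the library with most Il22-only cells, gave 80 and 63. Of the 70 genes chosen by the naming rule 42 were called, and these 42 kept their sign in every alternative that tested them. The rule took part of them for being called with 1 direction in 8 of 8 libraries, and the alternatives reuse the same cells. A kept sign was therefore largely set by the selection and is no independent support. Of the 42, 29 stayed called whichever 1 library was left out. Other list members named above were not followed through the alternatives one by one.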

How the data were processed

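The deposited matrix holds UMI counts of 16649 genes in 104660 cells from 8 droplet libraries, with a library, a cluster number, the percent of mitochondrial UMIs and S and G2/M scores per cell as deposited by the authors. The submitters' processing notes list Cell Ranger 5.0.1, Seurat and the mm10 build with no order, and how the scores were computed is not stated per the labels. Column sums of the counts were checked against the deposited totals. Doublets were not called here; the deepest 8% of cells were left out as an alternative, and no removal before deposit is stated. Of the cell barcodes, 1269 occur in more than 1 library.

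UMIs were summed per library and kind of cell (16 sums), filtered with filterByExpr, scaled by TMM and fitted with edgeR 4.0.16 in R 4.3.3 with library as a block, robust quasi-likelihood tests and Benjamini-Hochberg adjustment. Il22, Il17a and Il17f were left out of the tests. CPM values are per TMM-scaled library, except the marker sums, which are per total UMIs. Outside the marker sums, levels of cells with both or with neither cytokine used TMM factors from a separate run on all 4 classes of cell. Their scale can therefore differ from that of the Il22-only and Il17-only cells. Culture and genotype terms were added for the differences. The library is the block because both kinds of cell come from the same library. Each gene had 7 residual degrees of freedom of its own, against a median of 86.75 from the estimate pooled over genes. The p-values of single genes therefore rest mostly on the pooled variation and less on the gene's own spread over libraries. Cell measures were compared by exact paired permutation over 8 library medians. Alternatives included DESeq2 1.42.0, thinning, depth windows and leaving out each library. The scripts were tested on simulated data. Positions are those of the GENCODE annotation for mm10 and promoters those of RefSeq on GRCm38.p6. Genes were named as the 12 largest rises and falls with 1 direction in 8 of 8 libraries and at least 10 CPM, up to 4 members per described list by adjusted p, and fixed T helper genes; further members are named in the accounts of their lists. The members and lists were chosen with earlier results of these data known. UMI counts limit precision by counting error only, and cells of 1 library are not replicates.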

Additional observations from a re-analysis of the deposited data

Results flagged for a closer look

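For 73 results the paired log2 differences of the 8 libraries (pseudocount 1 CPM) were examined for a single library far from the rest, and 8 had one; chance gives about 1 in 20. WT Th17 replicate 1, with 45 Il22-only cells the smallest sum, was the distant library for 5 of them. Its difference was -2.714 for Cysltr2 (others -1.284 to -0.566), -3.25 for Crispld2 (others -1.591 to -0.232), -1.984 for Itch (others -0.829 to -0.225), -4.133 for Maf (others -1.433 to 0.749) and 0.669 for Batf (others -0.401 to 0.06). The Il22-only cells of that library held 1 UMI of Cysltr2 and 1 of Crispld2, with Itch at the same 5.005 CPM and Maf at 0 CPM. The differences of Cysltr2, Crispld2, Itch and Maf there thus rest on counts at the floor. Trib3 had 1.131 in KO Th22 replicate 2 (others 0.261 to 0.63), Tiparp 1.61 in KO Th17 replicate 1 (others -0.744 to 0.221), and Cd28 0.329 in WT Th17 replicate 2 (others -0.61 to -0.21).

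The difference of Dgat1 between the kinds of cell was -1.07 on the log2 scale in KO relative to WT by an interaction term, the 1 gene that passed (edgeR adjusted p = 0.0069).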

How the results depend on the processing

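Over 29 alternatives, the 42 called genes of the naming rule kept their sign wherever they were tested, which their selection in the same cells largely set. Of these, 6 were called in every alternative that gave an adjusted p (Lta, Asns, Gem, Cstdc4, Hif1a and Ifitm2). Of 1104 single values 282 were not called, and the cause was not tested. Against 129 genes higher and 97 lower, the fit with no replicate block (4 group means) called 41 and 34 by edgeR, DESeq2 73 and 50, thinned cells 46 and 32, kinds set on thinned counts 34 and 26, cells with 1500 to 4000 UMIs 9 and 13, and the Il17a rule 19 and 24. Cluster 2 alone gave 69 and 56 and its removal 56 and 52, both chosen after seeing the data. Th17 libraries gave 43 and 45, Th22 libraries 56 and 56, and libraries of 1 genotype and number summed 49 and 59. WT libraries gave 14 and 12 and KO libraries 125 and 116, from equal numbers of libraries. All of these hold fewer samples than the main fit, and why WT and KO libraries differ was not tested. Rises numbered 78 without the deepest 8% of cells and 67 with both cycle scores at or below 0. Leaving out 1 library gave 80 to 132 rises and 63 to 105 falls. Replicate numbers are shared across groups, and the block used is the library.

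The culture difference called 11 genes with no filter, 2 without the deepest cells, 1 each with thinned cells, the Il17f rule, no clusters 7, 9 and 11, and no cluster 2, and 0 to 4 without 1 library. The genotype difference called 0 with no replicate block, DESeq2, thinned cells, kinds set on thinned counts, the depth window, the Il17a rule, low cycle scores or no cluster 2, 4 with no filter, 2 with at least 2 UMIs, the Il17f rule or no deepest cells, and 0 to 3 without 1 library. With 4 or fewer pairs the exact test cannot pass 0.05.

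The mitochondrial difference (percent) was -0.0987 in the depth window, -0.1377 with the Il17a rule, -0.0711 without cluster 2, -0.2429 in Th17, -0.1002 in Th22, -0.1781 in WT and -0.165 in KO libraries, -0.1121 when summed, and -0.1996 to -0.1573 without 1 library. Its call was lost in the window, with the Il17a rule (exact permutation, adjusted p = 0.094) and without cluster 2 (0.21), and it held without any 1 library. The G2/M difference was 0.009 in the window, -0.0216 with the Il17a rule, -0.0187 without the deepest cells, -0.0429 in Th17, -0.0323 in Th22, -0.0358 in WT, -0.0394 in KO, -0.0563 when summed, and -0.0414 to -0.0342 without 1 library. Its call was lost in the window, with the Il17a rule (exact permutation, adjusted p = 0.22) and without the deepest cells (0.070), and it held without any 1 library. The S score difference, not called, was 0.0033 in the window, 0.002 with at least 2 UMIs and with kinds set on thinned counts, 0.0004 without the deepest cells, 0.0028 in Th22, 0.0034 in KO and 0.0021 when summed, and -0.0032 to 0 without 1 library. Of the genes of the naming rule 13 changed sign in at least 1 alternative, and 0 of these 13 were called at first. Socs3 (-0.311 to 0.244), Tiparp (-0.387 to 0.268), Asb2 (-0.353 to 0.301), Maf (-0.194 to 0.312) and Tnf (-0.174 to 0.427) crossed 0. The other 8 were Il21 (0.0902 in Th17), Bach2 (0.0789) and Cd4 (0.0113) with kinds set on thinned counts, Tyms (0.192), Batf (0.0209) and Gzmb (-0.147) in Th17, Hmmr (0.0213, Il17a rule) and Pik3ip1 (0.064 thinned, 0.189 in the window, 0.0372 in cluster 2, 0.053 in WT).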

Other observations

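Further T helper genes lay below the filter on low counts, and none passed when the filter was dropped. The Th2 factor Gata3 had 8.14 ± 5.54 CPM in Il22-only and 7.07 ± 3.03 CPM in Il17-only cells (log2 fold change 0.36 ± 0.29, SD and SE over 8 libraries, edgeR adjusted p = 0.87), and the Th1 factor Tbx21 had 3.02 ± 3.52 and 2.93 ± 2.21 CPM (-0.22 ± 0.52, adjusted p = 0.95). The Th17-associated membrane genes Tmem176a and Tmem176b had -0.59 ± 0.46 and 0.42 ± 0.46, and Il6st, the signalling chain of the IL-6 receptor, had -0.46 ± 0.33. The regulatory T cell factor Foxp3 had 0 UMIs in Il22-only and 1 in Il17-only cells and the chemokine Ccl20 0 and 2, too few to compare.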
